A study of Homo sapiens with 4 samples.

Results

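The genes described here are 9 markers of epithelial identity and of its loss: the adhesion molecules CDH1 and EPCAM, the keratins KRT8, KRT18 and KRT19, the intermediate filament VIM, and the transcription factors ZEB1, SNAI1 and TWIST1. They are textbook markers, and the rule that finds them uses no measured value. Each was looked up in every library's table by its symbol or, where the row carries no symbol, as the row whose hg19 position best overlaps the gene's span, with an overlap of at least 0.4 of the union of both. This found 7 of the 9 in all 4 tables, TWIST1 in 3 of them and KRT8 in none. They sit in a table of 52319 joined loci, of which 10092 were expressed highly enough to be tested. In LNCaP cells given CRYM, VIM and EPCAM were called higher and KRT19, CDH1 and, only with a filter on low values, SNAI1 were called lower. KRT8, KRT18 and TWIST1 did not pass the test, and ZEB1 was listed at 0 in every library.

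LNCaP is an established human prostate cancer line derived from a metastasis to a lymph node and keeps features of luminal prostate epithelium. Cells at passage 22, in RPMI medium with 10% fetal calf serum, were transiently transfected with 2500 ng of plasmid and 12 µL of a lipid reagent. The control group of 2 libraries received the empty control plasmid for the pReceiver-M72 vector, and the other group of 2 libraries a plasmid that expresses the CRYM open reading frame. CRYM encodes mu-crystallin, which binds thyroid hormone in the cytosol. GFP was watched during the transfection, and RNA was taken after 48 h. The labels name no sorting, so the RNA may come from cells with and without plasmid. Messenger RNA libraries were sequenced as single reads of 50 bp. Each value is an FPKM, a number of fragments divided by transcript length in kilobases and scaled to the mapped fragments, 1 table a library.

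Epithelial cells hold to each other through adherens junctions, tight junctions and desmosomes, and carry a skeleton of keratin filaments, in simple glandular epithelia mostly KRT8 paired with KRT18. In the epithelial to mesenchymal transition, factors of the SNAI, ZEB and TWIST families bind short E-box motifs and repress CDH1 and other junction genes, while vimentin filaments and matrix genes appear. LNCaP is widely used as a line of the epithelial state, and such factors are usually low in it.

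The vector's own gene checks the labels. CRYM (chr16:21250195-21314404 of hg19) had 1.17 and 0.977 FPKM with the empty vector and 65.3 and 72.5 with CRYM, a log2 difference of 5.07 (SE 0.0867, limma adjusted p = 0.00252). Reads of the plasmid and of the cell's own gene cannot be told apart. Taking the depth of empty vector 1 as 1, that of empty vector 2 was 1.15, that of CRYM 1 was 0.842 and that of CRYM 2 was 1.07. The labels call the samples biological replicates without naming separate cultures, and a p-value therefore reflects only how far these samples spread. No call in this comparison survived the loss of a library: with each of the 4 libraries left out in turn (both empty vector and both CRYM libraries), limma called 0 of 10092 loci, with 3629 to 3818 at an unadjusted p under 0.05.

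By limma, at an adjusted p under 0.05, CRYM cells had 2 of the 8 tested genes higher and 3 lower, and the groups did not overlap for any of the 8. The 3 lower include SNAI1, which was tested only through the group where it is high, and without the filter on low values 2 were lower. Over all tested loci 33.4% were called, 15.7% higher and 17.7% lower, and the groups did not overlap at 72.2%. With so broad a difference between the libraries, a call or a lack of overlap in a single gene carries little weight by itself, and the size of each difference is therefore given beside the median absolute log2 difference of 0.23 over all tested loci. Differences are on the log2(FPKM + 1) scale, CRYM minus empty vector. In bulk RNA, fewer cells that express a gene and less RNA in each cell cannot be told apart.

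**Figure D1:**
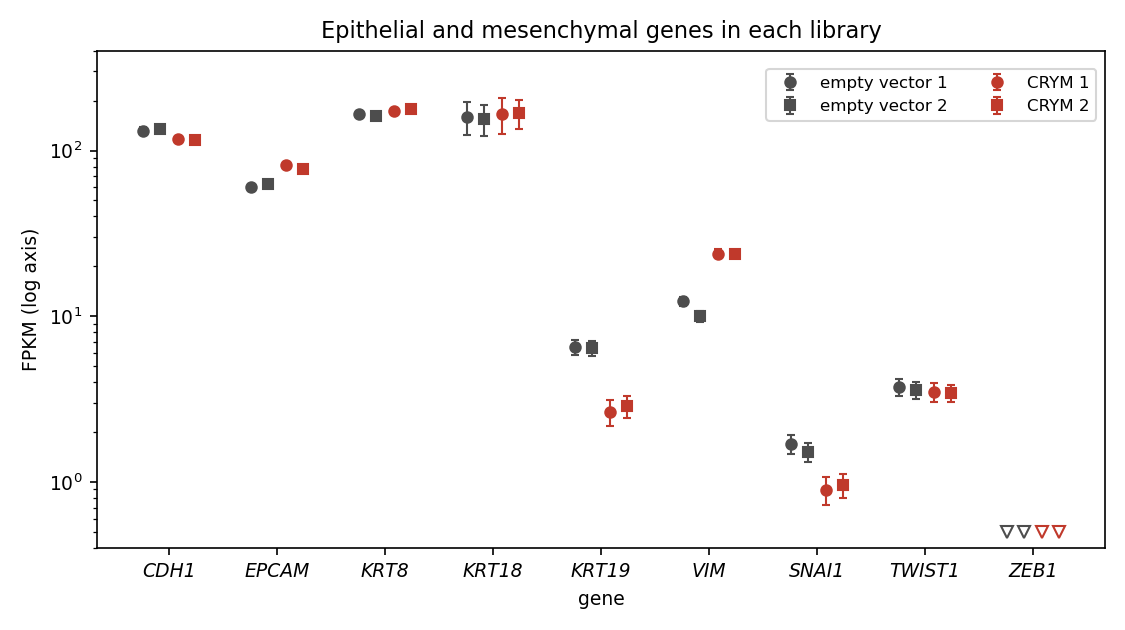
FPKM of each gene on a log axis in the 4 libraries, grey for empty vector and red for CRYM, circles for replicate 1 and squares for replicate 2, with the deposited interval of each value as a bar. Open triangles stand for ZEB1, listed at 0 in all 4 libraries. VIM and EPCAM lay higher in both CRYM libraries and KRT19 and SNAI1 lower, and the keratin pair KRT8 and KRT18 was the most abundant.

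CDH1 and EPCAM, the adhesion molecules, moved in opposite directions, both by little. CDH1 encodes E-cadherin, the calcium-dependent adhesion molecule of adherens junctions (chr16:68771128-68869451). Its FPKM was 132 and 134 with the empty vector and 117 and 116 with CRYM. Both CRYM values were below both control values, and each pair lay close together. The means were 133 ± 1.08 and 117 ± 0.341 (SD, n = 2 each), 1.14-fold lower, with a log2 difference of -0.19 (SE 0.0206, limma adjusted p = 0.0176). More than the median locus moved further: 57.1% of tested loci had a larger absolute difference.

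Abundant loci in general were listed lower in the CRYM libraries, and CDH1 is one of them. The 766 tested loci with a mean FPKM of at least 100 had a median log2 difference of -0.16, against 0.01 for all tested loci. Of these 766, 39.8% were called lower and 9.01% higher. With quantile normalization, which gives every library the same distribution of values, their median was -0.02, CDH1 came to -0.04 and its call was lost (limma adjusted p = 0.288). It was lost too on rescaling each library to one total (-0.16, limma adjusted p = 0.201). The fragments that the deposited intervals imply, read as 2 SD of counting error to either side, did not follow the FPKM of CDH1. They were 2246 and 2260 with the empty vector and 2207 and 2238 with CRYM, 1.12 times the control level at equal depth. These counts hardly varied between libraries of unequal depth, so they do not show whether its reads changed.

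EPCAM, a calcium-independent adhesion glycoprotein of most glandular epithelia, had 59.9 and 62.8 FPKM with the empty vector and 82.2 and 77.8 with CRYM. Both CRYM values were above both control values. The means were 61.4 ± 2.01 and 80.0 ± 3.07 (SD, n = 2 each), 1.3-fold higher, with a log2 difference of 0.38 (SE 0.0457, limma adjusted p = 0.020). EPCAM stayed called at 0.47 with quantile normalization (limma adjusted p = 0.0176). The 1577 tested loci with a mean FPKM of at least 50 had a median of -0.14, so EPCAM moved against the abundant loci as a group. Its locus (chr2:47572297-47614740) is 42444 bp long, where the RefSeq gene has 17710 bp, and its overlap over union of 0.424 lay just inside the limit of 0.4. The ratio of EPCAM to CDH1 was 0.454 and 0.470 with the empty vector and 0.704 and 0.669 with CRYM. The pseudogene RN7SKP119 within the EPCAM locus had at most 0.740 FPKM in any library.

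KRT8 and KRT18, the obligate partners of the simple-epithelial keratin filament, were the most abundant of the 9 genes and did not pass the test. KRT8 had 167 and 162 FPKM with the empty vector and 172 and 178 with CRYM. KRT18 (chr12:53342655-53346685) had 160.3 and 155, then 167 and 168. In each gene the CRYM values lay slightly above the control values without overlap. The log2 difference was 0.09 for KRT8 (95% interval -0.01 to 0.19, limma adjusted p = 0.128) and 0.09 for KRT18 (95% interval 0.00 to 0.18, limma adjusted p = 0.106). With quantile normalization both were called higher, at 0.26 each (limma adjusted p = 0.0287 and 0.0177).

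The ratio of KRT8 to KRT18 within a library was 1.04, 1.04, 1.03 and 1.06, with the empty vector libraries first. The highest and the lowest of these ratios were both from CRYM libraries. KRT8 has no row that overlaps its span by 0.4 of the union: the locus taken for it (chr12:53290977-53343738, overlap over union 0.152) is 52762 bp long and was placed by its named neighbours and its length, against 52670 bp in RefSeq and 52768 bp in GENCODE. That locus overlaps the KRT18 locus, so how reads were divided between these 2 genes is uncertain. Deposited intervals for KRT18 were wide, at 124 to 197 and 123 to 187 with the empty vector and 126 to 208 and 135 to 201 with CRYM. Both keratins have many processed pseudogenes, and the named ones took up little: 49 KRT8 pseudogene loci summed to 1.68 to 2.98 FPKM per library and 43 KRT18 pseudogene loci to 0.723 to 1.08.

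KRT19, a small acidic keratin of simple and ductal epithelia, was lower in CRYM cells. Its FPKM was 6.55 and 6.43 with the empty vector and 2.64 and 2.87 with CRYM. The CRYM values were less than the lower control value by a wide margin, and the replicates of each group lay close together. The means were 6.49 ± 0.0846 and 2.76 ± 0.158 (SD, n = 2 each), 2.35-fold lower, with a log2 difference of -1.0 (SE 0.0556, limma adjusted p = 0.00737), and 6.86% of tested loci had a larger absolute difference. This was the lowest adjusted p of the 8 tested genes, and the call held under each scaling tried, at -0.57 to -1.21 over all settings that kept all 4 libraries.

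The fragments implied for KRT19 fell with its FPKM. The deposited intervals imply 377 and 386 fragments with the empty vector and 121 and 170 with CRYM, 0.425 of the control level at equal depth. The ratio of KRT19 to KRT18 was 0.0408 and 0.0415 with the empty vector and 0.0159 and 0.0170 with CRYM. That ratio does not depend on a factor that scales a whole library. It does depend on KRT18, whose deposited intervals were wide. They imply only 78 and 94 fragments with the empty vector and 66 and 105 with CRYM, fewer than for KRT19 in each library. Whether the 2 keratins differed in their response was not tested. The end of the KRT19 locus (chr17:39679869-39684560) differs in CRYM library 1, so that its rows were joined by gene and not by position. Summing all rows inside the gene's span gave -1.14 (limma adjusted p = 0.0168).

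**Figure D2:**
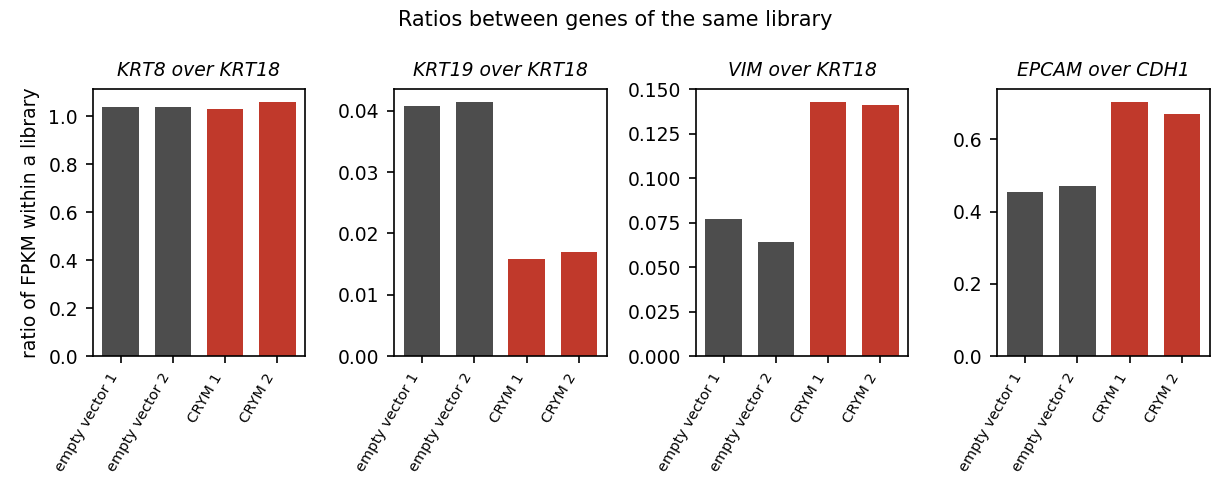
Ratio of FPKM between pairs of genes of the same library, grey bars for the empty vector libraries and red bars for the CRYM libraries, each axis from 0. KRT8 over KRT18 was 1.03 to 1.06 in the 4 libraries, KRT19 over KRT18 was lower and VIM over KRT18 and EPCAM over CDH1 were higher in both CRYM libraries.

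VIM, the type III intermediate filament of mesenchymal cells, showed the largest rise of the 8 tested genes. It had 12.3 and 9.96 FPKM with the empty vector and 23.9 and 23.7 with CRYM (chr10:17270258-17279592). Its control values were further apart than its CRYM values, and the groups did not overlap. The means were 11.1 ± 1.66 and 23.8 ± 0.164 (SD, n = 2 each), 2.14-fold higher, with a log2 difference of 1.04 (SE 0.116, limma adjusted p = 0.0180), and 6.46% of tested loci had a larger absolute difference. The intervals imply 873 and 843 fragments with the empty vector and 1195 and 1323 with CRYM, 1.65 times the control level at equal depth, less than the FPKM ratio.

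Another row lies within VIM. The noncoding locus RP11-124N14.3 (chr10:17275324-17276832) was listed at 0 and 5.40 FPKM with the empty vector and at 10.1 and 10.6 with CRYM. It did not pass the test (limma adjusted p = 0.227), and it was the lower of the VIM controls, empty vector library 2, that had a value there. VIM and this locus together came to 12.3 and 15.4, then 34.0 and 34.3, a 2.47-fold higher mean. The sources used here do not say whether counting was by strand, so reads of the 2 loci cannot be told apart. Without empty vector library 1 the VIM difference was 1.18 and without empty vector library 2 it was 0.90. The ratio of VIM to KRT18, whose deposited intervals were wide, was 0.0768 and 0.0643 with the empty vector and 0.143 and 0.141 with CRYM. Even so VIM stayed far below the keratin pair in every library.

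SNAI1, the zinc finger factor known as Snail that represses CDH1, was low and lower still in CRYM cells. Its row carries its symbol (chr20:48599536-48605423), and its FPKM was 1.69 and 1.52 with the empty vector and 0.899 and 0.960 with CRYM. The groups did not overlap. The means were 1.60 ± 0.121 and 0.930 ± 0.0427 (SD, n = 2 each), 1.72-fold lower, with a log2 difference of -0.43 (SE 0.0736, limma adjusted p = 0.0349). The intervals imply 232 and 245 fragments with the empty vector and 109 and 148 with CRYM, 0.601 of the control level at equal depth. SNAI1 passed the minimum of 1 FPKM in 2 libraries through the empty vector group alone, which by itself favours a difference in this direction. The call was lost without that filter (limma adjusted p = 0.158) and on rescaling to the same total (limma adjusted p = 0.0808).

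TWIST1, a helix-loop-helix factor of mesoderm and neural crest, had 3.75 and 3.57 FPKM with the empty vector and 3.48 and 3.43 with CRYM. The CRYM values were below the control values by less than the deposited intervals, which overlap in all 4 libraries. Its log2 difference was -0.06 (95% interval -0.22 to 0.09, limma adjusted p = 0.404). The locus (chr7:19060614-19157295) is 96682 bp long, where the RefSeq gene has 4590 bp, so its value may hold more than TWIST1. It carries the TWIST1 symbol in 3 tables, and in CRYM library 2 it was taken by its identical position.

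ZEB1, a zinc finger factor that represses CDH1 and other junction genes, was listed at 0 in all 4 libraries with deposited intervals of 0 to 0 (chr10:31607424-31818742), and was not tested. An exact 0 in such tables can be a failed estimate. Of 16 housekeeping genes looked for, all 16 were placed, and the lowest value of any in any library was 10.4 FPKM. Such well expressed genes cannot show whether the 0 of ZEB1 is a failed estimate. With GENCODE placements 4 genes of the wider lists, FOXC2, TAGLN, LOX and TGFB1, were also at 0 in every library, with intervals of 0 to 0. With FPKM alone no upper limit for ZEB1 can be given.

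**Figure D3:**
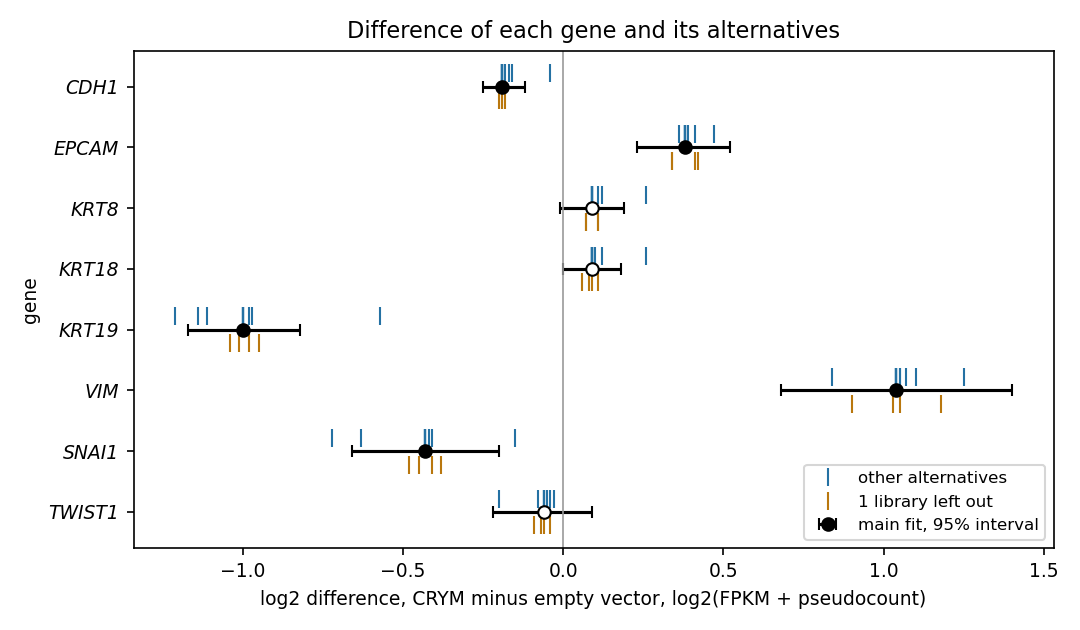
Log2 difference of each tested gene, CRYM minus empty vector, with its 95% interval (black, filled where called, open where not), with every alternative that keeps all 4 libraries above it (blue) and with 1 library left out below it (brown). VIM and EPCAM stayed above 0 and CDH1, KRT19 and SNAI1 below 0 in every fit drawn, with CDH1 nearest to 0 at -0.04.

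By level, the order in empty vector cells was KRT8 (mean FPKM 164), KRT18 (158), CDH1 (133), EPCAM (61.4), VIM (11.1), KRT19 (6.49), TWIST1 (3.66), SNAI1 (1.60) and ZEB1 (listed at 0). FPKM is scaled to transcript length, so levels of different genes may be set side by side. KRT8 and KRT18, at 162 to 167 and 155 to 160.3, were apart by less than the deposited intervals of KRT18. The KRT18 intervals, 124 to 197 and 123 to 187, also span the CDH1 values of 132 and 134, so they do not settle that order either. All other neighbours in that order were apart by more than the spread of their libraries. In CRYM cells the mean of KRT19, at 2.76, fell below that of TWIST1, at 3.45, and the rest of the order was the same. The KRT19 intervals there, 2.16 to 3.12 and 2.43 to 3.31, overlap the TWIST1 intervals of 3.02 to 3.93 and 3.02 to 3.84. The TWIST1 locus may also hold more than TWIST1, so this change of order is not settled. The epithelial genes CDH1, EPCAM, KRT8 and KRT18 stayed among the abundant loci, each above 88.9% or more of all tested loci by mean level, while SNAI1 was above 5.98%.

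Junction and adhesion genes that were not among the 9 were examined as a wider list of 29 genes. The tables name few of them, so a gene with no symbol was taken as the single unnamed locus between its named neighbours whose length fits RefSeq. This method gave the right gene for 97.3% of 2135 named genes on which it was checked. It placed 13 of the 29, of which 12 were tested: 4 were higher, 1 lower and 7 did not pass, where 15.7% of all tested loci were higher and 17.7% lower. Their median log2 difference was 0.25, against 0.01 for all tested loci. With GENCODE placements, a later alternative, 18 were tested: 6 were higher, 1 lower and 11 did not pass. Their median was smaller, at 0.15. Of the 4 that rose with RefSeq placements, 3 encode tight junction proteins and 1 a desmosome protein.

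TJP1, the scaffold protein ZO-1 of tight junctions (chr15:29991571-30261068), had 23.1 and 22.7 FPKM with the empty vector and 43.4 and 39.0 with CRYM, a log2 difference of 0.82 (SE 0.0652, limma adjusted p = 0.0114). OCLN, the tight junction strand protein occludin (chr5:68788119-68853931), had 16.2 and 17.3, then 27.7 and 26.8 (0.67, SE 0.0483, limma adjusted p = 0.0103). MARVELD2, or tricellulin, which seals the points where 3 cells meet, had 16.8 and 17.3, then 26.3 and 26.5 (0.60, SE 0.0307, limma adjusted p = 0.00676). In all 3 the CRYM values lay well above the control values. DSP, the desmoplakin that ties desmosomes to keratin filaments (chr6:7541808-7586950), had 40.6 and 40.8, then 57.4 and 56.5 (0.47, SE 0.0236, limma adjusted p = 0.00663). CLDN3, a claudin of tight junctions, was the 1 that fell, from 41.2 and 41.0 to 31.5 and 33.7 (-0.33, SE 0.0440, limma adjusted p = 0.0237). Its call was lost without the filter (limma adjusted p = 0.0513) and on rescaling to the same total (0.129).

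Implied fragments rose with FPKM for OCLN and MARVELD2, to 1.37 and 1.42 times the control level at equal depth. For DSP they were 3841, 3890, 3856 and 3989, near the same in every library and 1.15 at equal depth, less than its 1.40-fold rise in FPKM. For TJP1 they did not follow the FPKM: CRYM library 1 implied 330 fragments where the other 3 implied 2533 to 3566, though its FPKM was the highest. OCLN has a partial pseudogene copy nearby, so its reads are uncertain.

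Promoters are shown because SNAI and ZEB factors are known to bind the E-box CAGGTG, read on the other strand as CACCTG. The 250 bases before the annotated start are shown, from RefSeq on GRCh38.p14, for VIM, the gene of the 9 that rose most, and for the junction genes OCLN, TJP1 and DSP. Each is written 5′ to 3′ on the strand of its gene, with the motif in capitals. Promoters of 3 of the 9 genes, KRT8, VIM and ZEB1, are in the table used. For OCLN, with 2 starts, and TJP1, with 4, 1 start is shown.
VIM chr10:17227991-17228240, plus strand: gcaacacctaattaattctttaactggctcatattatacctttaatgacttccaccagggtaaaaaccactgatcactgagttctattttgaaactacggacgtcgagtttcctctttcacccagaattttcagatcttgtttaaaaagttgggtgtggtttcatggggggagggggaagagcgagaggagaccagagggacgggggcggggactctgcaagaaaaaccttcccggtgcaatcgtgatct
OCLN chr5:69492297-69492546, plus strand: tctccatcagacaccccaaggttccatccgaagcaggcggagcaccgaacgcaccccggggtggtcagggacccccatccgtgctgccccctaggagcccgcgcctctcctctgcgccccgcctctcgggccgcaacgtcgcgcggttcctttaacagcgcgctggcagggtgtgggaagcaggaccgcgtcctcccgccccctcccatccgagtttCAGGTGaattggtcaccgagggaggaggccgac
TJP1 chr15:29969050-29969299, minus strand: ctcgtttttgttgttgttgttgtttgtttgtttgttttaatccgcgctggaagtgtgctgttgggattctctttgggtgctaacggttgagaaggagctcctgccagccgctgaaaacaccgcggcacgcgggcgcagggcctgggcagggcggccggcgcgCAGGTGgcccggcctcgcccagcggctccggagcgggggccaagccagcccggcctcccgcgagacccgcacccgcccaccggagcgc
DSP chr6:7541421-7541670, plus strand: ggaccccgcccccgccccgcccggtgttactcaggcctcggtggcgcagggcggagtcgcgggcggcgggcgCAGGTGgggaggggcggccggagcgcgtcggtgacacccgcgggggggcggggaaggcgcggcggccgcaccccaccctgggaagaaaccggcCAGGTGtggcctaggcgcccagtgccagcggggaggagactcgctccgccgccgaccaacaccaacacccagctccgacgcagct
OCLN holds 1 CAGGTG, 33 bases before its start, TJP1 holds 1 at 88 bases and DSP holds 2, at 178 and 85 bases. The VIM window holds none. Of 35116 promoter windows of the same length in the table, 17.5% hold the motif on either strand. The junction genes shown were chosen from those called higher. MARVELD2, which was called higher too, CLDN3, which was called lower, KRT8 and ZEB1 are not shown. The matches therefore cannot be set against the 17.5% as a result. A match is a description of these letters only.

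Other keratins were low. Of 8 listed, 6 were placed and 2 tested. KRT20, a keratin of gut and urothelium, rose from 0.493 and 0.417 FPKM to 1.70 and 1.46 (log2 difference 0.83, SE 0.0885, limma adjusted p = 0.0173), and passed the filter through the CRYM group alone. Its intervals imply 11 fragments in each empty vector library and 68 and 77 in the CRYM libraries. The call was lost with quantile normalization (limma adjusted p = 0.0672) and without the filter (0.0637). KRT10 had 7.32 and 7.43, then 7.04 and 6.77 (limma adjusted p = 0.228).

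Of 21 epithelial transcription and splicing factors and membrane proteins, 5 were placed and tested, 1 higher, 1 lower and 3 not past, with a median log2 difference of 0.12. With GENCODE placements 8 were tested, 1 higher and 3 lower, and the median turned to -0.11. KLF5, a zinc finger factor of epithelial renewal, was listed at 1.49 and 1.41 FPKM, then 0.899 and 0.877 (-0.38, SE 0.0644, limma adjusted p = 0.0350), and passed the filter through the empty vector group alone. Its deposited intervals with the empty vector, 0 to 8.2 and 0 to 7.35, span the CRYM values and imply 0 fragments, against 42 and 60 with CRYM, so the direction of KLF5 is not settled by these values. SPINT1, an inhibitor of epithelial membrane proteases, had 57.4 and 57.3, then 62.4 and 62.5 (0.12, SE 0.0210, limma adjusted p = 0.0359). This rise was smaller than the median absolute difference of all tested loci. Both calls were lost without the filter and on rescaling to the same total.

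Of 15 further transition factors, 9 were placed and 2 tested. SOX9, a factor of progenitor and cartilage cells that acts with SNAI2, had 1.19 and 1.44 FPKM with the empty vector and 3.62 and 3.59 with CRYM, a 2.74-fold rise (log2 difference 0.99, SE 0.0820, limma adjusted p = 0.0121). Its implied fragments rose alike, to 2.87 times the control level at equal depth. TCF3 had 18.6 and 22.9, then 17.2 and 18.3 (limma adjusted p = 0.280). The other 7 placed factors were under 1 FPKM in every library. SNAI2, or Slug, the nearest relative of SNAI1, was one of them, at 0.727 and 0.781, then 0.223 and 0.185, and was picked out after its values were seen.

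The mesenchymal skeleton, adhesion and matrix list of 35 genes had 16 placed and 6 tested. Of these, 3 were higher, 1 lower and 2 not past, with a median log2 difference of 0.11. With GENCODE placements 13 were tested, 5 higher, 3 lower and 5 not past, with the same median. Of all tested loci 15.7% were higher and 17.7% lower. COL6A1 and COL6A2, chains of the same collagen VI molecule, rose together. COL6A1 had 47.2 and 37.0 FPKM, then 66.3 and 70.7 (0.70, SE 0.144, limma adjusted p = 0.0480), and COL6A2 had 19.0 and 18.4, then 24.1 and 25.1 (0.38, SE 0.0389, limma adjusted p = 0.0162). MSN, the moesin that links actin to the membrane, went from 14 and 13.7 to 16.6 and 16 (0.22, SE 0.0376, limma adjusted p = 0.0362). All 3 calls were lost on rescaling to the same total, those of COL6A1 and MSN also without the filter (limma adjusted p = 0.0976 and 0.0830), and that of COL6A1 also without a variance trend (0.0526).

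ACTA2, smooth muscle actin, went the other way from VIM. It fell from 7.45 and 8.71 FPKM to 1.90 and 1.73, 4.46-fold (log2 difference -1.69, SE 0.0974, limma adjusted p = 0.00780), with implied fragments at 0.260 of the control level at equal depth. Actin genes are alike in sequence, so reads can be shared among them. CDH2, the N-cadherin whose gain marks the transition, was at most 0.0239 FPKM in any library.

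Of 16 genes of TGF-beta and BMP signalling, which can induce or oppose the transition, 6 were placed and 2 tested, and neither passed. The receptor TGFBR1 had 4.15 and 4.26 FPKM, then 3.93 and 3.57 (limma adjusted p = 0.217), and the receptor BMPR1A had 2.53 and 2.53, then 2.21 and 2.29 (limma adjusted p = 0.195). With GENCODE placements 4 were tested and the receptor BMPR2 was higher, from 11.4 and 12.1 to 14.8 and 14.1 (0.28, limma adjusted p = 0.0404), a call lost without the filter (0.0887) and on rescaling to the same total (0.0733). Over the 6 lists, 29 of 124 genes were tested, 10 higher, 3 lower and 16 not past, where 15.7% of all tested loci were higher and 17.7% lower. With GENCODE placements 47 were tested, 15 higher and 7 lower.

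**Figure D4:**
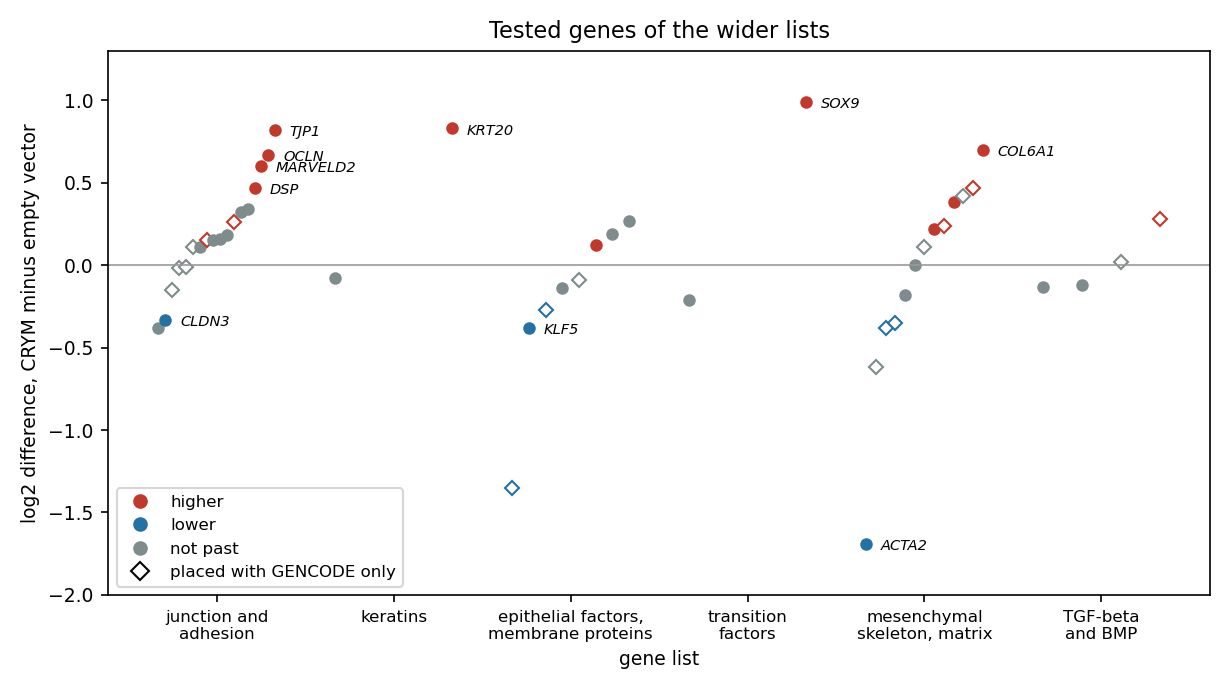
Log2 difference, CRYM minus empty vector, of every tested gene of the 6 wider lists, red where higher, blue where lower and grey where not past the threshold. Open diamonds are genes placed with the GENCODE annotation alone. TJP1, OCLN, MARVELD2 and DSP stand at the top of the junction list, at 0.47 to 0.82, and ACTA2 is the lowest point at -1.69.

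The luminal prostate markers KLK3 (1939 and 1874 FPKM, then 863 and 900.4, log2 difference -1.11, limma adjusted p = 0.00489) and FOLH1 (216 and 220.3, then 319.7 and 308, 0.52, limma adjusted p = 0.00794) were abundant. Of the luminal list 3 of 4 tested genes were lower and 1 higher. With GENCODE placements 5 of 6 were lower and 1 higher, with a median log2 difference of -0.98. Of all tested loci 17.7% were lower and 15.7% higher. Of the tested loci with a mean FPKM of at least 100, 39.8% were lower and 9.01% higher. KLK2 had 375 and 365 FPKM, then 131 and 139.9 (-1.44, limma adjusted p = 0.00484). SPDEF (-0.84, limma adjusted p = 0.00517) and HOXB13 (-0.19, limma adjusted p = 0.0275) were lower as well, HOXB13 not with quantile normalization (0.362), on rescaling to the same total (0.265) or without the filter (0.0639). Implied fragments did not follow the size of these differences. At equal depth they were 1.08 times the control level for KLK3, 0.764 for KLK2, 0.985 for SPDEF and 1.12 for HOXB13. Mean FPKM was 2.16, 2.73, 1.81 and 1.14-fold lower in that order. For FOLH1 the implied fragments were 1.13 times the control level, against 1.44-fold higher FPKM. How far these genes changed is therefore not settled. Markers of other cell types were low, as far as they were placed. With the GENCODE placements, 5 of 7 fibroblast markers were placed, and their sum was 5.42 to 5.82 FPKM with the empty vector and 7.70 to 8.39 with CRYM. It moved with VIM and collagen VI, and its part in those results was not tested. The highest of them, COL1A1, had 3.55 and 3.72, then 4.69 and 5.78 (0.42, limma adjusted p = 0.0773). COL3A1 (0.684, 0.596, 0.922 and 1.09) and COL1A2 (0.702, 0.746, 0.961 and 0.562) were at or near 1 FPKM or below. The sum of 3 placed of 6 basal markers was 0.944 to 1.08, then 1.95 to 1.97. It was higher in both CRYM libraries, and its part in the results above was not tested. That of 4 placed of 5 immune markers was 2.64 to 2.80, then 1.95 to 2.44, led by HLA-DRA (2.40, 2.29, 1.95 and 1.56), with LYZ at 0.328 to 0.435. That of 4 placed of 5 endothelial markers was 2.29 to 2.36, then 1.96 to 2.73, with VWF at 1.80 to 2.47, CLDN5 at 0.136 to 0.275 and CDH5 at most 0.0219. All 5 neuroendocrine markers were placed and summed to 0.939 to 0.941, then 0.985 to 1.08, with SYP at 0.684 to 0.932, NCAM1 at 0.0941 to 0.260 and CHGA at most 0.0401.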

How the data were processed

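Polyadenylated RNA of 4 libraries was measured, 2 per group, grouped by the transfection label. The deposited values are FPKM each with an interval and a quality status, per the file headers. Cufflinks 2.2.1, Cuffdiff, TopHat2 2.1.1, Bowtie2 2.2.9 and the build hg19 are named without their roles, per the submitters' processing notes. Tables were joined by identical position, KRT19 by gene. Positions are hg19, counted from 1, and the GRCh38 references gave names, neighbours, lengths and promoter letters only.

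Loci that reached an FPKM of 1 in 2 or more libraries and had the status OK in all 4 were tested with limma 3.58.1 (R 4.3.3) on log2(FPKM + 1), a scale that understates changes of low genes, with a variance trend, two-sided, and Benjamini-Hochberg adjustment over all 10092 loci at 0.05. A fold is a ratio of mean FPKM. The fit was tested on simulated data. At loci of 60 to 62 bp, 100.0% of values were whole multiples (tolerance 0.02) of 1 read, which gave relative depths. Absolute depth is unknown, and implied fragments cover counting error only.

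The 9 genes, the lists and the alternatives were chosen with earlier results of these data known. Named were the 9 genes, CRYM, up to 4 called genes per list (else the 2 highest), and the 2 highest markers per cell type. The list and marker genes among these were chosen by symbol or RefSeq placement. The CRYM row carries no symbol and was placed between its named neighbours with GENCODE 29. CLDN3, BMPR2, KLK2, SPDEF, HOXB13, COL1A1, VWF, SYP, KRT10, TCF3, CDH2, SNAI2, RP11-124N14.3 and the housekeeping genes were added after values were seen. So were FOXC2, TAGLN, LOX and TGFB1. Unnamed list genes were placed between named neighbours with RefSeq (length within 1.1 times), and with GENCODE 29 (within 1.01 times, 98.2% of 2966 checked genes right) as a later alternative. Python 3.11.15 with pandas 2.3.3 did the join. The labels do not say whether same-numbered libraries pair.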

Additional observations from a re-analysis of the deposited data

How the results depend on the processing

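Of CRYM, the 9 genes and the other genes named, ITGB1 aside, 1 changed sign. VWF, at 0.03 without a call, came to -0.12 with quantile normalization and to -0.12 to 0.19 with 1 library left out. The median of the epithelial factor list turned from 0.12 to -0.11 with GENCODE placements. With 1 library left out, 1 residual degree of freedom remains and the single library of a group takes its spread from the other group. In those 4 fits limma called 0 to 0 loci higher and lower, 0 of the 9 genes and 0 of the list genes (3629 to 3818 loci at an unadjusted p under 0.05), and CRYM was at 5.0 to 5.15 (adjusted p 0.0550 to 0.0712). With the replicate number as a block limma also called 0 loci, 0 of the 9 genes and 0 list genes in either direction (3821 loci had an unadjusted p under 0.05), and CRYM stood at 5.07 (adjusted p 0.0569). Deviations of same-numbered libraries correlated at 0.0361, which cannot show whether they share a culture or a day, and the labels do not say. Without the filter 790 loci were higher and 1088 lower, and 1 list gene was lower (ACTA2). Of the list genes called higher in the main analysis, TJP1, OCLN, MARVELD2, DSP, SOX9 and COL6A2 kept their calls. KRT20, SPINT1, COL6A1 and MSN lost theirs. On rescaling to the same total 685 loci were higher and 624 lower (1582 and 1784 in the main analysis, where lower calls led), 1 of the 9 genes was lower (KRT19), and 6 list genes were higher and 1 lower. With quantile normalization 4 of the 9 were higher (KRT8 and KRT18 added). Summing loci inside each span left 1 of the 9 higher, because the EPCAM locus is longer than its span and had no value. With GENCODE placements 15 list genes were higher and 7 lower. Of the values of single genes under all alternatives, 453 kept their side of the threshold, 2 passed in addition, 199 no longer passed and 2 changed sign. Loci of at least 300 bp alone, an alternative chosen after seeing the data, gave 3785 calls of 9206. Depth limits SNAI1 and KRT20, the wide intervals of the empty vector libraries limit KLF5, and 2 libraries a group limit every p.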

Other observations

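Several genes of the lists were placed with the GENCODE annotation alone and were picked out after their values were seen. FN1, the matrix protein fibronectin, was listed at 148 and 151 FPKM with the empty vector and 65.4 and 65.1 with CRYM. Its deposited intervals, 0 to 4.47 and 0 to 4.53, then 0 to 2.04 and 0 to 2.01, lie far below these values. Its status was failed in all 4 libraries, so it was not tested, and neither its level nor its direction is settled. KLF4, a zinc finger factor of differentiated epithelium, fell from 11 and 13.2 to 4.13 and 4.09 (log2 difference -1.35, limma adjusted p = 0.0112). The catenins that tie cadherins to actin rose slightly: CTNNB1 from 71.8 and 70.0 to 86.5 and 84.2 (0.26, limma adjusted p = 0.0180) and CTNNA1 from 86.7 and 87.5 to 97.9 and 95.2 (0.15, limma adjusted p = 0.0369), while CDH1, their partner, was lower.

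The epithelial factor ELF3 fell by 0.27 on the log2 scale (limma adjusted p = 0.0244), and ESRP1, the splicing factor of epithelial isoforms, had 25.7 and 28.5 FPKM, then 25.6 and 25.2, without a call. Among mesenchymal genes S100A4 and ITGB1 rose by 0.47 and 0.24 (limma adjusted p = 0.0435 and 0.0367), and TPM1 and CYR61 fell by 0.35 and 0.38 (0.0183 and 0.0217). ZEB1-AS1, the RNA that starts beside ZEB1 on the other strand, had 3.52 and 3.74 FPKM, then 4.78 and 4.81 (0.32, limma adjusted p = 0.0310), where ZEB1 itself was listed at 0. Without a statement on strand, reads of these 2 genes where they overlap cannot be told apart. ITGB1 was not followed through the alternatives. Apart from it and KLF4, each of these calls was lost on rescaling to the same total. Those of CTNNA1, ELF3, S100A4, CYR61 and ZEB1-AS1 were lost also without the filter. Those of S100A4 and ZEB1-AS1 were lost with quantile normalization too (limma adjusted p = 0.136 and 0.0745).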
